A study of Mus musculus with 9 samples.

Results

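Subcutaneous tumours of mice given bortezomib (BTZ) together with an anti-PDL1 antibody were compared with tumours of mice given an isotype control antibody, across all genes that passed a filter on low counts. The filter left 14506 of the 34745 genes in the table, and 13060 of the others had no count in any tumour. The tumours grew from LLC cells, a mouse lung carcinoma line, injected under the flank skin of male wild-type C57BL/6 mice. The isotype group (3 tumours) received the control antibody at 10 mg/kg, and the combination group (3 tumours) received anti-PDL1 at 10 mg/kg and BTZ at 0.5 mg/kg, all into the peritoneum. A group given anti-PDL1 alone at 10 mg/kg (3 tumours) is used here for the spread between tumours and for reference levels. The labels list no group given BTZ alone, so in the comparison with isotype the drug and the antibody cannot be told apart. Bulk RNA of whole tumours was sequenced, with 18516282 to 20965787 counts per tumour in the 6 tumours compared. The series title ties the study to STING and interferon-gamma signalling.

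BTZ inhibits the proteasome at its catalytic core, the complex that degrades ubiquitin-tagged proteins and that, in its immune form, cuts peptides for display on MHC class I. PDL1 on tumour and myeloid cells engages PD-1 on T cells and restrains them, and the antibody blocks that contact. STING is the adaptor of the DNA sensor cGAS and switches on type I interferon. Type I interferon acts through a receptor and the transcription factor complex ISGF3, which binds the interferon-stimulated response element (ISRE) in promoters of antiviral genes, whereas interferon-gamma acts at the gamma-activated site (GAS).

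The genes nearest the threshold on the higher side included antiviral genes of the type I interferon response. The DNA before the start sites of genes of that response is therefore shown first, for genes chosen by role and not by rank. The lines give the bases before the start site 5′ to 3′, from RefSeq on GRCm38.p6, for genes at both ends of the pathway. These are the antiviral genes Ifit3 and Ifit1, Isg15, a ubiquitin-like modifier, Stat2, a part of ISGF3, and Irf7, the factor that amplifies interferon output. Capitals mark every match to the ISRE core, TTTC repeated after any 2 bases, or to its reverse complement, GAAA repeated after any 2 bases.
Ifit3 (chr19:34583279-34583528, + strand): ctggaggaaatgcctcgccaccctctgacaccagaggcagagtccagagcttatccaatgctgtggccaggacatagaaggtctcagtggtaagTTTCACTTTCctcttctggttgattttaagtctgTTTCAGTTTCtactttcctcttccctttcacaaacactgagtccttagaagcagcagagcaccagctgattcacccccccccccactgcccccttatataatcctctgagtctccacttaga
Ifit1 (chr19:34640639-34640888, + strand): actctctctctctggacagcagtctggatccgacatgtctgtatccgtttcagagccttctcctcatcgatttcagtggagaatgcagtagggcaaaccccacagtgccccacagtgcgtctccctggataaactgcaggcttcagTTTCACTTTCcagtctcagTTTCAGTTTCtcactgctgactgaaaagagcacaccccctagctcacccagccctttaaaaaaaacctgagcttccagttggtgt
Isg15 (chr4:156200819-156201068, - strand): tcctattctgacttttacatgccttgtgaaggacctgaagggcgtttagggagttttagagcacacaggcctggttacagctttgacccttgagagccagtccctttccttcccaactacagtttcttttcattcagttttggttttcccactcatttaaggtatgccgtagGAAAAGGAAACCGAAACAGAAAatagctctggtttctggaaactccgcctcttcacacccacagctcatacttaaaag
Stat2 (chr10:128270248-128270497, + strand): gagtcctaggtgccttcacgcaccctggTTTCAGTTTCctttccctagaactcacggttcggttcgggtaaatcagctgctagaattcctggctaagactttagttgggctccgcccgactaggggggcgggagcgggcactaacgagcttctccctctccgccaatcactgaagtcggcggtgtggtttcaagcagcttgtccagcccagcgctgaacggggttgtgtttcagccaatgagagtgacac
Irf7 (chr7:141266425-141266674, - strand): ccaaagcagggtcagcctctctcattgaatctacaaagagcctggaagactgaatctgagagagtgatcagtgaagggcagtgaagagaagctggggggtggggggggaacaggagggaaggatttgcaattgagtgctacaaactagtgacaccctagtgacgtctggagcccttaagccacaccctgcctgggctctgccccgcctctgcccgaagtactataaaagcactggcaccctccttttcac

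Ifit3 and Ifit1 each held 2 matches, Isg15 held 3 that overlap, Stat2 held 1 and Irf7 held none. Lgals3bp and Herc6, also listed genes of small p on the higher side, are not shown. Their windows of 300 bases held no match. In Ifit3 the matches began 156 and 122 bases before the start site, and in Ifit1 104 and 85 bases before it. Over the window of 300 bases (250 before to 50 after the start), 17 of the 35 listed type I interferon-stimulated genes with a RefSeq window held an ISRE match (48.6%), against 402 of 10447 tested genes with a window (3.85%). Of the interferon-gamma response genes, 12 of 19 held an ISRE match (63.2%) and 10 of 19 a match to the GAS core TTCNNNGAA (52.6%), which reads alike on both strands and was present in 8.46% of the tested genes. A match is a run of letters and not a measured binding site, and several listed genes belong to families with similar promoters.

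With edgeR's quasi-likelihood test and Benjamini-Hochberg adjustment over all 14506 genes, 1 gene passed an adjusted p of 0.05, which is 0.00689% of those tested. It was Gm6485 (ENSMUSG00000089999, chr3:104752727-104753165, mm10), annotated as a transcribed processed pseudogene, which fell. Its levels were 70.2, 63.6 and 67.0 CPM (counts scaled to a common library total, TMM corrected) in the isotype tumours and 42.0, 43.6 and 40.5 CPM in the combination tumours, with 52.0, 51.1 and 52.2 CPM under anti-PDL1 alone. The 3 groups did not overlap, and the log2 difference between combination and isotype was -0.67 ± 0.067 (SE), with an adjusted p of 0.0332 in edgeR. The call held in 10 of 20 alternatives, and the adjusted p reached 0.221 among the others. It was lost with only the 6 tumours compared, with the replicate number as a block, and without isotype replicate 1, anti-PDL1 replicate 2 or 3, or any 1 of the combination tumours. It was also lost without the muscle-richest tumours and with a muscle score as covariate. Reads of a processed pseudogene can be shared with its parent gene, so the level is uncertain.

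No other gene passed, and the values of every other gene below are given without a claim that it changed. At an unadjusted p under 0.05, 641 genes were higher in the combination tumours (4.42%) and 606 lower (4.18%), and in 1010 genes (6.96%) all 3 combination tumours lay above all 3 isotype tumours, against 875 (6.03%) below. The median log2 difference of all genes was -0.0011, 49.7% of genes had the higher value in the combination tumours, and the median SE of a log2 difference was 0.138.

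The antiviral gene Ifit3 stood nearest the threshold on the higher side. It was at 17.5, 12.2 and 12.6 CPM in the isotype tumours and at 33.5, 31.0 and 36.5 CPM in the combination tumours, a log2 difference of 1.26 ± 0.15 (SE) with an adjusted p of 0.0511 (edgeR). Every combination tumour lay above every isotype tumour, and above the anti-PDL1 tumours at 17.8, 15.02 and 16.4 CPM. Slfn4, a myeloid Schlafen gene, was at 34.9, 33.4 and 43.1 CPM against 69.6, 84.5 and 79.5 CPM, with a log2 difference of 1.07 and an adjusted p of 0.0684 in edgeR. Lgals3bp, a secreted galectin-binding glycoprotein that interferon induces, was at 66.8, 74.4 and 74.9 CPM against 154, 125 and 170 CPM, a log2 difference of 1.05 with the same adjusted p. Irf7 was at 15.3, 13.8 and 18.5 CPM against 29.0, 31.0 and 40.3 CPM, and Mx1, a GTPase that blocks viral replication, at 5.14, 4.16 and 7.95 CPM against 15.1, 16.03 and 20.5 CPM. Neither gene overlapped between the groups, with log2 differences of 1.08 (adjusted p = 0.106) and 1.58 (adjusted p = 0.154) in edgeR.

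**Figure D1:**
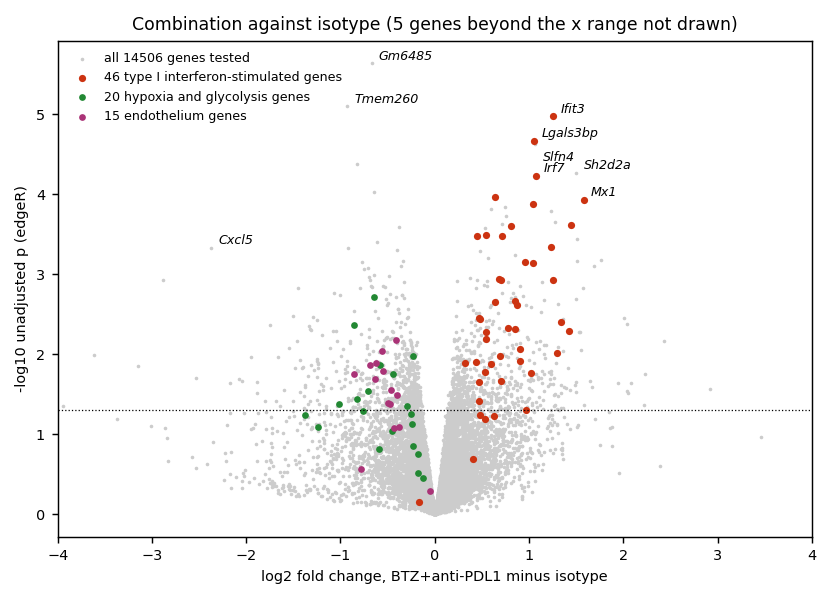
Each point is a gene: the x axis gives the log2 fold change of BTZ+anti-PDL1 minus isotype and the y axis -log10 of edgeR's unadjusted p, with a dotted line at the unadjusted threshold. The 46 type I interferon-stimulated genes (red) lie to the right of 0 except Trex1, and the 20 hypoxia and glycolysis genes (green) and 15 endothelium genes (purple) lie to the left.

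Genes outside the interferon lists were also named, by p or by the size of the difference. Sh2d2a, a T cell adaptor, was at 2.10, 2.18 and 2.56 CPM against 6.26, 6.09 and 7.08 CPM (log2 difference 1.504). Sla, an adaptor that tunes antigen receptor signalling, had a log2 difference of 0.74, and Plgrkt, a plasminogen receptor, of 0.60. Tlr7, an endosomal receptor for single-stranded RNA, was at 7.29, 1.88 and 7.27 CPM against 15.3, 17.5 and 14.99 CPM, so its groups did not overlap either, with an adjusted p of 0.470 in edgeR. On the lower side, Tmem260 was at 29.1, 27.5 and 29.2 CPM against 14.5, 17.1 and 13.5 CPM, a log2 difference of -0.93 with an adjusted p of 0.0511 (edgeR). Its anti-PDL1 tumours, at 17.9, 17.5 and 16.6 CPM, overlapped the combination tumours, unlike those of Ifit3. Dbn1, an actin-binding protein, was at 49.3, 60.8 and 48.6 CPM against 35.9, 36.1 and 31.4 CPM (log2 difference -0.62). Tmsb10, which sequesters actin monomers, had a log2 difference of -0.55, and the ribosomal protein genes Rpl35 and Rpl35a had -0.40 and -0.48.

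Genes of the type I interferon response had higher values as a group. Of the 46 listed and tested, 45 were higher in the combination tumours, 41 of them at an unadjusted p under 0.05 and none lower at that p, against 4.42% of all genes. The 2 groups did not overlap in 36 of the 46, against 6.96% of all genes, and the median log2 difference was 0.71, against -0.0011 over all genes. None passed the adjusted threshold in edgeR. DESeq2 called 24 of the 46 higher, among 111 genes in all (65 higher, 0.448% of all genes, and 46 lower, 0.317%). Against anti-PDL1 alone the same genes had a median log2 difference of 0.52, with 46 of 46 higher, 30 at an unadjusted p under 0.05 (3.15% of all genes) and 33 without overlap (7.33% of all genes). Anti-PDL1 against isotype had a median of 0.20 with 5 of 46 higher at that p (3.01% of all genes). These comparisons share tumours, so they are not independent of each other.

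**Figure D2:**
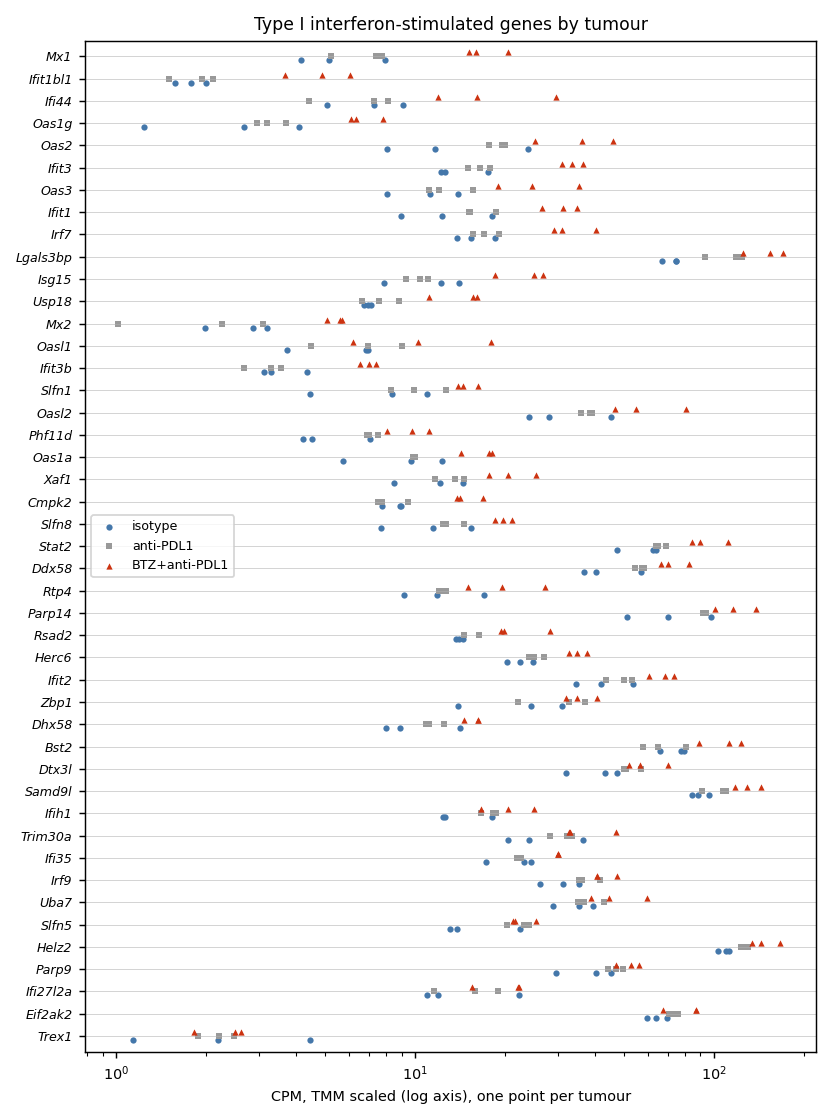
Each row is a type I interferon-stimulated gene and each point 1 tumour, placed on a log axis of CPM, with isotype in blue, anti-PDL1 in grey and BTZ+anti-PDL1 in red. The plot holds 45 of the 46 listed genes, and in 36 of them the 3 red points lie above the 3 blue points.

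By role, the antiviral effectors are given first. Ifit1 was at 18.1, 8.96 and 12.3 CPM in the isotype tumours and at 26.5, 31.3 and 34.7 CPM in the combination tumours, a log2 difference of 1.23 ± 0.232 (SE). Oas3, which makes the second messenger that activates RNase L, was at 11.2, 8.07 and 13.9 CPM against 24.6, 19.0 and 35.4 CPM. Rsad2, which makes a chain-terminating nucleotide, was at 14.1, 14.5 and 13.6 CPM against 19.9, 19.4 and 28.2 CPM. None of these genes overlapped between the groups, and isotype replicate 2 was the lowest tumour for Ifit1 and Oas3. In the ISG15 system, Isg15 was at 12.2, 7.87 and 14.01 CPM against 24.9, 18.5 and 26.7 CPM, and Usp18, the protease that removes ISG15, at 7.08, 6.93 and 6.74 CPM against 15.6, 11.1 and 16.1 CPM. Stat2 was at 63.9, 47.5 and 62.4 CPM against 89.6, 84.3 and 111 CPM, again without overlap, with a log2 difference of 0.71.

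The lists upstream of this response had smaller median log2 differences, -0.0027 for the type I interferons and receptor chains and 0.14 for the cGAS-STING relay. Ifnb1, the interferon-beta gene, had between 0 and 3 counts in each of the 9 tumours and did not pass the filter, and Ifna2 and Ifna4 had none. Of the 4 tested receptor-side genes, Tyk2, a kinase on the type I receptor, was at 63.1, 52.7 and 56.1 CPM against 72.1, 77.2 and 71.1 CPM (log2 difference 0.36), and Ifnar1 and Ifnar2 overlapped at 0.10 and -0.10. Jak1, a kinase that both interferon receptors use, was lower without overlap, at 344, 341 and 337 CPM against 314, 310 and 326 CPM (log2 difference -0.11). Of 17 genes of the cGAS-STING relay, 12 were higher, 5 of them at an unadjusted p under 0.05 (4.42% of all genes), with a median log2 difference of 0.14. The DNA sensor cGAS (Mb21d1 in the table) was at 1.26, 1.09 and 2.67 CPM against 2.80, 3.31 and 4.32 CPM. STING (Tmem173) was at 80.9, 70.9 and 84.6 CPM against 89.0, 90.4 and 93.9 CPM. Neither overlapped with isotype, and their log2 differences were 1.06 and 0.21, but the cGAS levels under anti-PDL1 alone (3.55, 3.50 and 2.86 CPM) overlapped those of the combination. Ifi204, a DNA-binding protein of the Ifi200 family, was at 39.8, 35.7 and 44.8 CPM against 57.2, 55.7 and 61.9 CPM. The count of 5 became 3 without isotype replicate 2 or without combination replicate 3, and the median became 0.095 without isotype replicate 3.

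Interferon-gamma itself was barely detected. Ifng, which T and NK cells secrete, was at 0.21, 0 and 0.261 CPM in the isotype tumours and at 1.00, 1.02 and 0.572 CPM in the combination tumours, and the groups did not overlap. Irf1, a factor that interferon-gamma induces directly, was at 66.5, 52.4 and 81.8 CPM against 78.0, 99.4 and 113 CPM and overlapped. Of 29 tested interferon-gamma response genes, 28 had the higher value, 10 at an unadjusted p under 0.05 (4.42% of all genes) and 7 without overlap (6.96%), with a median log2 difference of 0.98. Cxcl10, a chemokine that draws activated T cells, was at 35.1, 19.5 and 50.2 CPM against 77.8, 59.2 and 96.8 CPM, a log2 difference of 1.16 ± 0.325 (SE). Irgm1, an immunity-related GTPase, was at 52.1, 30.6 and 77.4 CPM against 88.4, 83.9 and 116 CPM. Both were lowest in isotype replicate 2 and highest among isotype tumours in replicate 3. The median under anti-PDL1 alone against isotype was 0.66, so this group stood nearer to the combination there than the type I genes did, a difference that was not tested. The median became 0.59 without isotype replicate 2 and 1.55 without isotype replicate 3, and the count of 10 became 25 without isotype replicate 3, 5 without any 1 of the anti-PDL1 tumours, 2 without combination replicate 1, and 1 without isotype replicate 1 or combination replicate 3.

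Antigen presentation genes had higher values too. Of 19 MHC class I genes, 18 were higher, 11 at an unadjusted p under 0.05 (4.42% of all genes) and 9 without overlap (6.96%), with a median log2 difference of 0.55. H2-T23, a non-classical class I molecule that engages NK receptors, was at 51.0, 30.7 and 52.0 CPM against 79.5, 68.7 and 86.3 CPM (log2 difference 0.81). Tapbp, which holds class I molecules at the peptide transporter, was at 247, 180 and 259 CPM against 312, 276 and 326 CPM (0.42). Both were without overlap, with isotype replicate 2 lowest. All 12 class II genes were higher, 2 at that p, and Ciita, the class II master regulator, was at 6.87, 2.28 and 9.67 CPM against 14.3, 10.7 and 12.2 CPM. Without isotype replicate 2 the class I median was 0.28 and the class II median 0.46, and the class I count became 7 without combination replicate 1 and 6 without combination replicate 3. The class II count ran from 0 to 8 over the tumours left out, with 8 without isotype replicate 3.

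The target of the drug showed little difference in RNA. Of the 14 subunit genes of the constitutive proteasome core, 4 were higher and 10 lower, none at an unadjusted p under 0.05 in either direction, with log2 differences from -0.12 to 0.12. Psmb5, the subunit that BTZ binds, lay within that range. Of 18 genes of the regulatory particle, 17 were lower with a median of -0.067 (-0.041 without isotype replicate 3), and none reached an unadjusted p of 0.05. The 6 genes of the immunoproteasome and its activator were all higher, with a median of 0.39, and Psmb10, the only one at an unadjusted p under 0.05, was at 39.6, 30.1 and 56.5 CPM against 67.8, 51.7 and 64.0 CPM and overlapped. That median was 0.18 without isotype replicate 2 and 0.66 without isotype replicate 3. Among 19 genes of proteasome recovery and ubiquitin, 5 were higher and 14 lower, and Rps27a, which encodes ubiquitin fused to a ribosomal protein, was at 45.3, 56.8 and 46.4 CPM against 65.8, 60.6 and 57.6 CPM without overlap (log2 difference 0.31).

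Genes of proteotoxic stress had mostly lower values than in the isotype tumours, and this also held under anti-PDL1 alone. Of 18 heat shock and chaperone genes, 17 had lower values and 2 of these an unadjusted p under 0.05 (4.18% of all genes), and Hspa1b, the inducible HSP70, was at 48.1, 108 and 19.2 CPM against 27.3, 14.4 and 25.5 CPM and overlapped. Isotype replicate 2 was the high tumour, and no gene of the list reached an unadjusted p of 0.05 on the lower side without it, without any 1 of the anti-PDL1 tumours or without combination replicate 2. Of 23 genes of the unfolded protein and integrated stress response, 17 were lower, 6 at an unadjusted p under 0.05 (4.18% of all genes) and none higher at that p. Atf4, the main factor of the integrated stress response, was at 430, 402 and 361 CPM against 328, 301 and 291 CPM, a log2 difference of -0.37. Ppp1r15a, which brings that response to an end, was at 33.1, 47.7 and 38 CPM against 27.4, 22.7 and 24.5 CPM, a log2 difference of -0.67. Neither overlapped, and the anti-PDL1 tumours were low as well for Atf4, at 276, 335 and 318 CPM. The count of 6 became 3 without combination replicate 2 or combination replicate 3. Of 12 NRF2 antioxidant targets 11 were lower, with a median of -0.24 that became -0.15 without combination replicate 2. The medians of the heat shock and unfolded protein lists were -0.12 and -0.092. Under anti-PDL1 alone against isotype the heat shock, unfolded protein and NRF2 medians were -0.19, -0.20 and -0.25. For the combination against anti-PDL1 alone they were 0.031, 0.069 and -0.027.

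**Figure D3:**
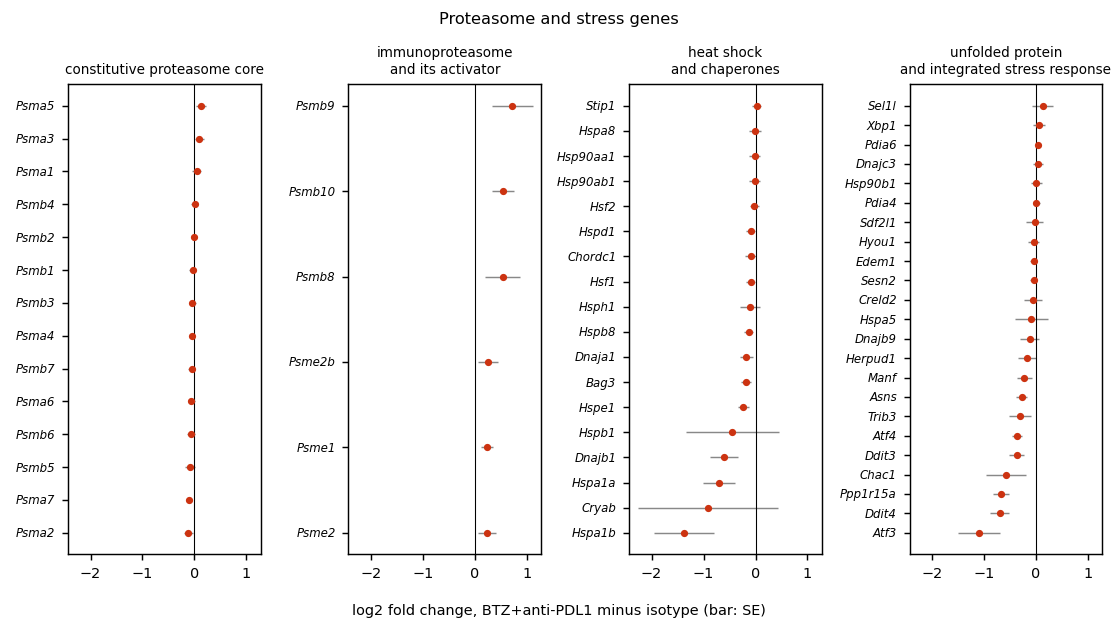
Points are log2 fold changes of BTZ+anti-PDL1 minus isotype (x axis) and bars the SE, for each gene of 4 lists. The core proteasome genes lie between -0.12 and 0.12, the immunoproteasome genes to the right of 0, and the inducible stress genes Hspa1b, Atf3, Ddit4 and Ppp1r15a to the left.

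Markers of T cells and of cytotoxic and NK cells had higher values in the combination tumours than in the isotype tumours. Of 24 T cell genes, 23 were higher, 8 at an unadjusted p under 0.05 (4.42% of all genes) and 9 without overlap (6.96%), with a median log2 difference of 0.76. Il2rb, a chain of the interleukin-2 receptor, was at 13.3, 8.46 and 16 CPM against 24.5, 19.0 and 21.6 CPM. Zap70, the kinase below the T cell receptor, was at 1.31, 0.891 and 1.99 CPM against 3.10, 2.24 and 3.49 CPM. In both, isotype replicate 2 was lowest and the groups did not overlap. Under anti-PDL1 alone against isotype the T cell median was 0.65, with 24 of 24 higher. For the combination against anti-PDL1 alone it was 0.35, with 20 of 24 higher and 0 at an unadjusted p under 0.05 in edgeR. In bulk tumour RNA a change in the number of cells of a type and a change in RNA per cell cannot be told apart. Of 22 cytotoxic and NK genes, 21 were higher, 6 at an unadjusted p under 0.05, against the same 4.42%. Gzmb, a granzyme that starts apoptosis in target cells, was at 12.3, 9.30 and 14.2 CPM against 21.1, 17.0 and 19.5 CPM, and Klre1, an NK receptor, at 0.892, 0.544 and 0.680 CPM against 2.95, 2.14 and 1.77 CPM. Neither overlapped with isotype, and the log2 differences were 0.68 and 1.69. For the cytotoxic and NK list the median was 0.27 under anti-PDL1 alone against isotype, with 14 of 22 higher. At an unadjusted p under 0.05 in edgeR, 1 was higher there (3.01% of all genes) and 3 lower (484 of all 14506 genes). For the combination against anti-PDL1 alone the median was 0.37, with 21 of 22 higher and 6 at that p (3.15% of all genes).

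Isotype replicate 2 was the lowest tumour on the T cell list. The T cell score, the mean over the list of each gene's log2 CPM centred on its mean over all 9 tumours, was -0.28, -1.84 and 0.22 in the isotype tumours and 0.65, 0.061 and 0.60 in the combination tumours, so isotype replicate 3 lay above combination replicate 2. The T cell median was 0.42 when isotype replicate 2 was left out and 1.304 without isotype replicate 3, then with 17 genes at an unadjusted p under 0.05. That count became 5 without combination replicate 1 or combination replicate 3, and the cytotoxic count became 3 without isotype replicate 1 or combination replicate 3 and 10 without isotype replicate 3. The cytotoxic and NK score did not overlap, at -0.22, -0.27 and -0.13 against 0.50, 0.62 and 0.12.

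**Figure D4:**
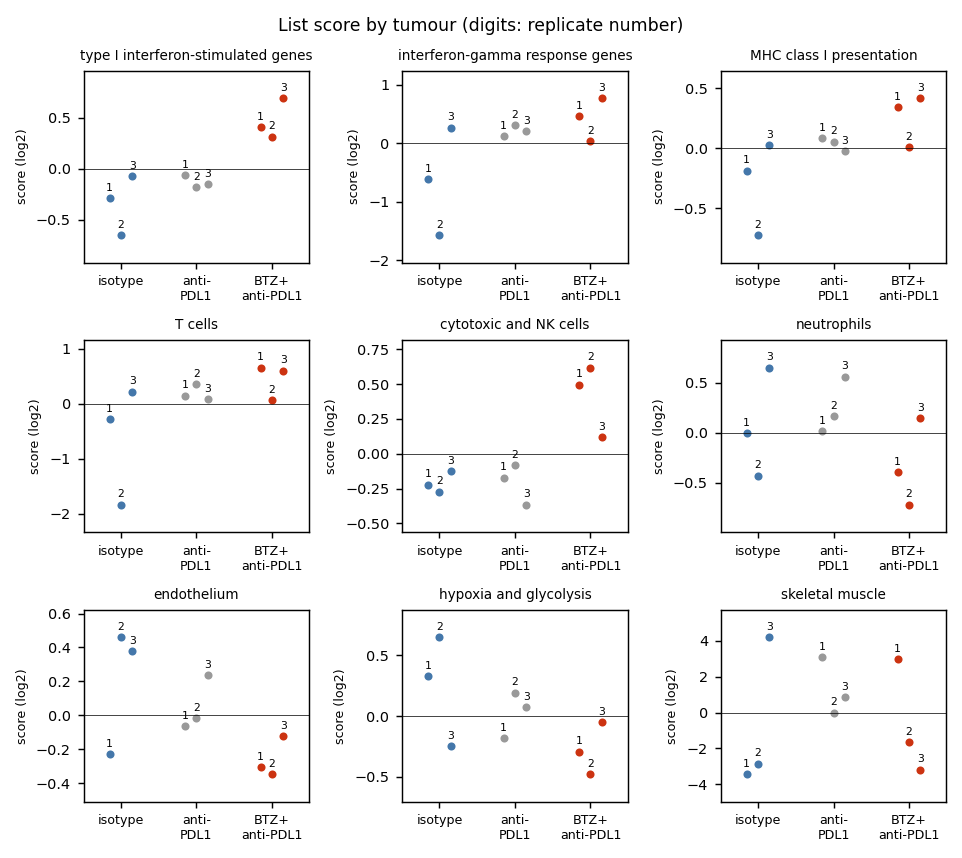
Each panel shows 1 list and each point 1 tumour with its replicate number, and the y axis is the list score on the log2 scale. The type I interferon-stimulated score runs from -0.65 to -0.073 in the isotype tumours and from 0.32 to 0.69 in the combination tumours, while the skeletal muscle score differs widely within each group.

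Myeloid genes were mixed. Ly6c2, a marker of inflammatory monocytes, was at 4.41, 2.33 and 4.55 CPM against 11.9, 11.1 and 9.11 CPM without overlap (log2 difference 1.51), while 17 of 23 macrophage and monocyte genes were higher and 3 of them reached an unadjusted p of 0.05 (4.42% of all genes). Of 16 dendritic cell genes 11 were higher, 6 at an unadjusted p under 0.05, and Itgax, which encodes CD11c, was at 22.7, 19.6 and 24.99 CPM against 31.0, 30.7 and 40.5 CPM. Without isotype replicate 2 the dendritic count was 2 and the macrophage median was 0.060 in place of 0.28, the dendritic count was also 2 without combination replicate 1 and 3 without isotype replicate 1, and the macrophage count was 9 without isotype replicate 3. Of 10 neutrophil genes 8 had lower values, 3 at an unadjusted p under 0.05 (4.18% of all genes). S100a9, a calcium-binding alarmin abundant in neutrophils, was at 33.3, 20.2 and 46.1 CPM against 14.5, 7.96 and 19.8 CPM, and did not overlap. The neutrophil median of -0.26 became 0.11 without isotype replicate 3, -0.065 without combination replicate 2 and -0.50 without combination replicate 3. Of 14 checkpoint genes 12 were higher, 2 at an unadjusted p under 0.05, and Cd274, which encodes PDL1 itself, was at 18.5, 16.3 and 29.5 CPM against 27.7, 25.1 and 41.9 CPM and overlapped. The checkpoint count was 1 without isotype replicate 2, 4 without isotype replicate 3 and 0 without combination replicate 1.

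Most inflammatory cytokine genes had lower values. Of 22 NF-kappaB targets and cytokines 16 were lower, 6 at an unadjusted p under 0.05 (4.18% of all genes) and 5 without overlap (6.03%), with a median log2 difference of -0.55 over all 22. The other 6 were higher, 1 of them at an unadjusted p under 0.05 and 1 without overlap. Cxcl5, a chemokine that draws neutrophils, was at 8.19, 9.65 and 11.97 CPM in the isotype tumours and at 1.65, 1.66 and 2.45 CPM in the combination tumours, a log2 difference of -2.37 ± 0.441 (SE). Ptgs2, the inducible cyclooxygenase, was at 280, 362 and 164 CPM against 131, 81.4 and 125 CPM, a log2 difference of -1.25. Neither overlapped with isotype. The count of 6 became 4 without isotype replicate 2 and 2 without combination replicate 2.

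Endothelial and hypoxia genes had lower values, though the scores of both lists overlapped between the groups. All 15 endothelium genes had lower values, 11 at an unadjusted p under 0.05 (4.18% of all genes) and 6 without overlap (6.03% of all genes), with a median log2 difference of -0.50. Cdh5, the cadherin of endothelial junctions, was at 73.7, 118 and 85.1 CPM against 57.6, 59.1 and 71.1 CPM. Vwf, a clotting protein stored in endothelium, was at 29.6, 38.1 and 31.8 CPM against 22.02, 26.2 and 26.9 CPM. Both were without overlap, with log2 differences of -0.56 and -0.41. All 20 hypoxia and glycolysis genes had lower values, of which 9 reached an unadjusted p of 0.05 and 5 were without overlap, with a median of -0.52. Vegfa, the growth factor for vessels that hypoxia induces, was at 90.7, 135 and 79.3 CPM against 58.7, 50.5 and 59.6 CPM, and Hk2, a hexokinase, at 249, 367 and 229 CPM against 192, 161 and 215 CPM. Neither overlapped, and isotype replicate 2 was the highest tumour for Cdh5, Vwf, Vegfa and Hk2. The endothelium score was -0.23, 0.46 and 0.38 in the isotype tumours and -0.30, -0.35 and -0.12 in the combination tumours. The hypoxia and glycolysis score was 0.33, 0.65 and -0.25 against -0.29, -0.48 and -0.049. The endothelial count became 4 without isotype replicate 2, 5 without isotype replicate 3, 6 without combination replicate 1 and 3 without combination replicate 2. The hypoxia count became 4 without isotype replicate 1, isotype replicate 2 or combination replicate 2, 5 without combination replicate 1 and 18 without isotype replicate 3, and its median became -0.31 without isotype replicate 2.

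**Figure D5:**
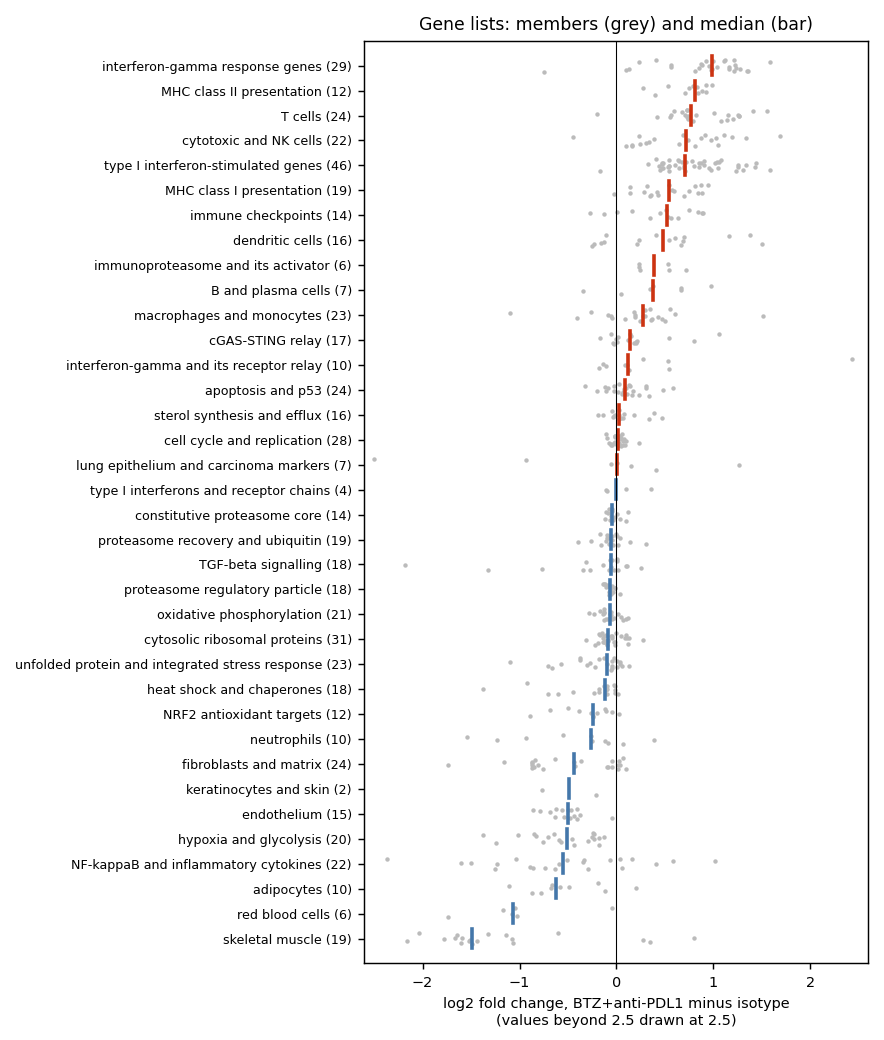
Each grey point is a gene's log2 fold change of BTZ+anti-PDL1 minus isotype (x axis), and each bar the median of a list, with the number of tested genes in brackets. The medians of the interferon response, MHC, immunoproteasome and T cell lists lie to the right of 0. Those of the core proteasome, regulatory particle, cell cycle, and type I interferon and receptor chain lists lie near 0. Those of the hypoxia, endothelium and muscle lists lie to the left.

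Stromal and growth genes differed less evenly. Of 24 fibroblast and matrix genes 18 had lower values, 4 at an unadjusted p under 0.05 (4.18% of all genes), and Fap, a protease of activated fibroblasts, was at 50.3, 35.2 and 31.7 CPM against 24.3, 26.9 and 13.6 CPM. The count of 4 became 11 without isotype replicate 1, 2 without isotype replicate 2, isotype replicate 3, anti-PDL1 replicate 3 or combination replicate 2, and 1 without combination replicate 1 or combination replicate 3. Of 28 cell cycle genes 16 were higher with a median of 0.020, which ran from -0.049 without combination replicate 3 to 0.083 without isotype replicate 3. Among them Pcna, the replication clamp, was the only one at an unadjusted p under 0.05 (3.57%, against 4.42% of all genes), at 146, 157 and 156 CPM against 183, 163 and 191 CPM. Of 24 apoptosis and p53 genes 17 were higher, 3 at an unadjusted p under 0.05 (4.42% of all genes), and Ccng1, a p53 target, was at 211, 242 and 214 CPM against 298, 296 and 247 CPM without overlap. That count became 6 without isotype replicate 1 and 5 without isotype replicate 2. Of 31 ribosomal protein genes 23 had lower values, 3 at an unadjusted p under 0.05 (4.18% of all genes), with a median of -0.090. Their median became -0.035 without isotype replicate 2, and their count 8 without combination replicate 1, 5 without isotype replicate 3 and 1 without isotype replicate 2, combination replicate 2 or combination replicate 3. Of 21 genes of oxidative phosphorylation 16 were lower with a median of -0.069, which became -0.18 without combination replicate 1 and -0.031 without combination replicate 2.

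The libraries also differed in tissue around the tumour. The summed level of 19 skeletal muscle genes was 24.6, 28.0 and 3604 CPM in the isotype tumours and 1088, 44.8 and 28.0 CPM in the combination tumours, so isotype replicate 3 and combination replicate 1 stood apart within their groups. When the muscle-richest tumour of every group was left out, the type I interferon-stimulated median was 0.95, the T cell median 1.21, the interferon-gamma response median 1.52 and the endothelial median -0.45. In the same fit the neutrophil median changed sign, from -0.26 to 0.090. The endothelial count at an unadjusted p under 0.05 (edgeR) went from 11 to 3. The lung markers Nkx2-1, Sftpc and Sftpb had 0 counts in all 9 tumours, Epcam reached at most 0.238 CPM, and the epithelial keratin Krt18 ran from 56.7 to 115 CPM. Napsa, a protease of lung and kidney epithelium, ran from 4.01 to 9.06 CPM, so of the lung lineage genes that could mark the labelled lung adenocarcinoma several defining ones were at 0.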

How the data were processed

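The deposited table gives counts per gene and FPKM values for 9 tumours. HISAT2 2.0.4, StringTie 1.3.3b and the mm10 build are named in the submitters' processing notes. The counting tool, annotation and strand setting are not given in the sources used here. The authors' deposited FPKM values served only in alternatives. Genes were kept by edgeR's filterByExpr (minimum count 10), scaled by TMM and tested with edgeR 4.0.16 (R 4.3.3, quasi-likelihood, 3 group means, 6 residual degrees of freedom). The code was run on simulated counts with the same spread for every gene. That run cannot show how the test behaves with the uneven spread of these tumours. CPM values are TMM scaled. SE is the log2 difference divided by the square root of F. p-values measure the spread between these tumours. Alternatives used DESeq2 1.42.0, limma 3.58.1, other filters and scalings, and tumours left out. Biotypes came from GENCODE M21, promoters from RefSeq GRCm38.p6.

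The comparison and the 37 gene lists were chosen with earlier results of these data known, so list counts are descriptions; some genes are on more than 1 list. Named genes were the 12 with the smallest p in each direction without overlap and with a mean of at least 1 CPM. To these came the 5 largest differences in each direction at 5 CPM or more, the 3 smallest p per list, and markers. Not all of them are described above, and Pcdhga2, the largest fall at 5 CPM or more, is not (log2 difference -5.46, adjusted p = 0.520 in edgeR). Predicted loci were left out. Gm6485, a predicted locus, is named because it alone passed. The other genes named from the lists were chosen for their role after their values were seen. Some list members are counted but not reported singly here.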

Additional observations from a re-analysis of the deposited data

How the results depend on the processing

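The number of genes called between BTZ+anti-PDL1 and isotype (1 in the analysis reported) was 1 with RLE scaling, 6 with no low-count filter, 3 at a minimum count of 50, 0 with only the 6 tumours compared, 111 in DESeq2, 3 in limma on log2(FPKM + 1) and 3 on log2(FPKM + 0.1), 0 when the muscle-richest tumour of every group was left out, 0 with a muscle score as covariate and 3 without the 57 genes whose counts fall on 2 levels; the cause was not tested. Leaving out each tumour gave 0 to 20 calls, with 20 (15 higher, 5 lower) without isotype replicate 3. With the replicate number as a block, 0 genes were called. Same-numbered isotype and combination tumours had correlations of deviations of -0.43, 0.10 and -0.27. Isotype replicate 3 and combination replicate 1, the muscle-richest of their groups, had 0.58. With 3 tumours per group, these values cannot decide whether the numbers mark a pairing. The median of the type I interferon-stimulated genes was 0.60 to 0.91 over the tumours left out and 0.95 without the muscle-rich tumours. Of 146 named genes, 136 kept their direction under every alternative that gave them a value. Without the muscle-rich tumours Eno3 became 0.12, Fabp4 0.20 and Scd1 0.16; Tbk1 became -0.0013 with RLE scaling and -0.0014 in DESeq2. Over the tumours left out the log2 difference ran from -0.94 to 0.46 for Eno3, -4.47 to 2.73 for Tnni2, -1.56 to 0.24 for Fabp4, -0.0028 to 0.50 for Lipe, -0.28 to 0.058 for Scd1, -0.36 to 0.0029 for Sbsn, -0.18 to 0.010 for Cdk1, -0.042 to 0.074 for Tbk1, -0.054 to 0.078 for Irf3 and -0.022 to 0.44 for Prf1; the cause was not tested. The counts at an unadjusted p were chosen after seeing the data.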

Other observations

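Other gene classes were counted after their values were seen. Of 136 tested processed pseudogenes, 104 were lower and 32 higher in the combination tumours, with a median log2 difference of -0.093. At an unadjusted p under 0.05, 17 were lower (12.5% of all 136, against 4.18% of all genes). At that p 2 were higher (1.47%, against 4.42% of all genes). Under anti-PDL1 alone against isotype, which shares the isotype tumours, their median was -0.091. Of 248 lincRNA genes 150 were higher, 15 of them (6.05% of the class, against 4.42% of all genes) with an unadjusted p under 0.05 and 2 of the lower ones, and of 230 antisense genes 144 were higher, 11 of them (4.78% of the class) at that p and 0 of the lower ones. These classes hold low counts, and strand was not stated, so reads of an antisense gene and its partner cannot be told apart.

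Of 6 red blood cell genes all were lower, with a median log2 difference of -1.06, and none reached an unadjusted p of 0.05. Under anti-PDL1 alone against isotype the median of this list was -1.73, with 0 of 6 higher. For the combination against anti-PDL1 alone it was 0.53, with 6 of 6 higher. Hbb-bs, a beta globin, was at 36.4, 67.0 and 135 CPM in the isotype tumours and at 50.7, 9.72 and 10.9 CPM in the combination tumours, so combination replicate 1 lay among the isotype tumours. Mt2, a metallothionein that binds zinc, was at 362, 371 and 153 CPM against 106, 76.4 and 138 CPM, without overlap and with a log2 difference of -1.46. Abcg1, which exports cholesterol, was at 15.95, 15.2 and 16.2 CPM against 19.8, 21.7 and 20.5 CPM, and the anti-PDL1 tumours were as high at 21.1, 25.3 and 25.5 CPM.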
